A study of Mus musculus with 25 samples.

Results

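The genes examined were the 3 pocket protein genes Rb1, Rbl1 and Rbl2, the E2F transcription factor genes E2f1, E2f2, E2f3, E2f7 and E2f8, and the E-type cyclin genes Ccne1 and Ccne2. They were taken by gene symbol from the array's annotation, with earlier results of these data known, and make up 10 of the 19938 genes with a probe set of their own. All 10 were bright enough to be tested, among 15951 genes. Expression was read as log2 signal on 25 arrays of frozen liver from mice on a mixed FVB;129 background. The series text describes transgenic Cre recombinase driven by the albumin promoter and loxP sites in Rb, p53 or both. That promoter works in hepatocytes, and liver cells in which Cre was not active keep the floxed genes. The share of cells with a deletion was not measured here. Mice labelled wild type for both genes are called WT here, those with p53 deleted p53KO, those with Rb deleted RbKO and those with both deleted DKO, and whether WT mice carried Cre or floxed alleles is not given in the sources used here. The treated mice received a single intraperitoneal dose of diethylnitrosamine (DEN), a carcinogen that hepatocytes turn into a DNA-alkylating agent, at 20 mg/kg and 14 days of age, with tissue taken 24 h later. Untreated livers gave 3 WT and 3 DKO arrays. Livers given DEN gave 5 arrays from WT, 5 from p53KO, 4 from RbKO and 5 from DKO. No untreated array comes from p53KO or RbKO. Untreated mice are labelled as having had no treatment, while the series text names saline. The labels do not tie replicates to separate animals, so a p-value here measures spread among samples that may be technical replicates, and the number of arrays limits the precision of every value.

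Pocket proteins bind E2F factors and hold back genes needed for S phase. When cyclin D and cyclin E kinases phosphorylate them, E2F1, E2F2 and E2F3 activate those genes, among which are E2F genes themselves, cyclin E genes and Rbl1. E2F7 and E2F8 lack a partner of the DP family and repress the same promoters later in the cycle, which closes a feedback loop. Hepatocytes of young mice still divide while the liver grows, and become largely quiescent in the adult.

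Hepatocyte markers were bright on every array, with a mean log2 signal over 8 markers between 11.1 and 11.9. Dates in the descriptions of the arrays place them in 3 sets, and what was done on those dates is not given. There were 16 arrays from all 6 groups in set 1. Set 2 had 4 (1 untreated WT, 2 DEN WT and 1 DEN RbKO) and set 3 had 5 (3 DEN p53KO and 2 DEN DKO). Group differences were therefore fitted with limma with the set as a term, and a gene was called at an adjusted p under 0.05 over all genes tested. A difference is on the log2 scale, as the first group minus the second, with the moderated standard error (SE).

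After DEN, 3 of the 10 genes were called higher than in WT in both RbKO and DKO, and they were Ccne2, Rbl1 and E2f8. The count was 3 of 10 in RbKO and 3 of 10 in DKO, all higher, where 5.23% and 2.69% of all genes were called higher and 11.4% and 11.8% were called in either direction. In p53KO only Ccne2 was called, 1 of 10 against 0.708% of all genes called higher and 1.78% called in either direction. E2f8 was at 0.73 (adjusted p = 0.126) and Rbl1 at 0.52 (adjusted p = 0.247) in p53KO, and neither was called. No member was called lower in any of the 11 comparisons of this fit. These counts changed when array sets were left out. With set 1 alone, which drops sets 2 and 3, RbKO had 2 calls (Ccne2 and Rbl1), DKO had 4 (Ccne2, Rbl1 and E2f8 higher and Rb1 lower) and p53KO had 1 (Ccne2). Without set 2, with sets 1 and 3 kept, RbKO had 1 call, Ccne2 (0.79, adjusted p = 0.0333), with Rbl1 at 0.70 (adjusted p = 0.0964) and E2f8 at 0.52 (adjusted p = 0.327). DKO then had 2 calls, Ccne2 higher (0.70, adjusted p = 0.00864) and Rb1 lower (-0.50, adjusted p = 0.0183), with Rbl1 at 0.43 (adjusted p = 0.188) and E2f8 at 0.55 (adjusted p = 0.130). In p53KO Ccne2 was then at 0.68 (adjusted p = 0.0528), which was not called. Of all genes, set 1 alone called 3.34% in RbKO, 10.9% in DKO and 5.91% in p53KO. The fit without set 2 called 1.21%, 8.91% and 1.22%. The median difference over the 10 genes was 0.21 in RbKO, 0.13 in DKO and 0.07 in p53KO, where the median of all genes was -0.04, -0.03 and -0.01. These 3 comparisons share the DEN WT arrays. Their members stand side by side in the plot of group differences.

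**Figure D1:**
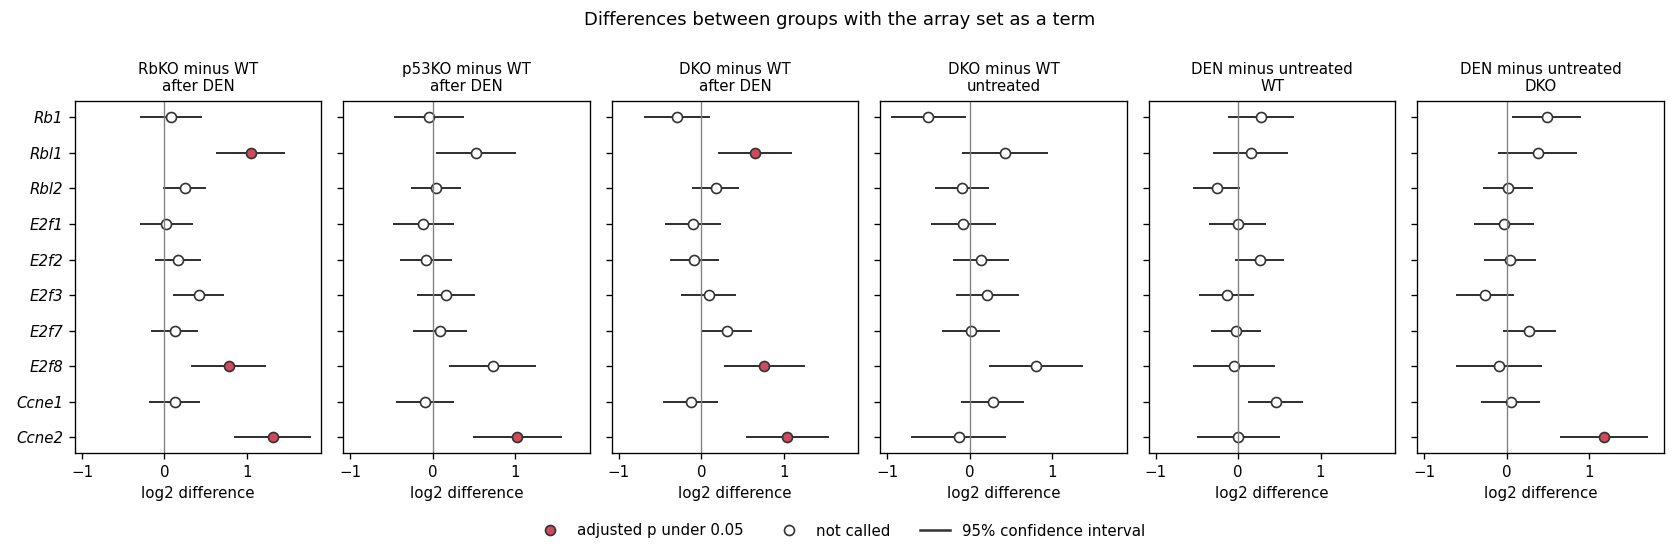
Log2 difference of each of the 10 genes (rows) in 6 comparisons (panels), as a point with its 95% confidence interval, filled where the adjusted p was under 0.05. The filled points are Ccne2, Rbl1 and E2f8 in RbKO and DKO, and Ccne2 in p53KO and in DKO after DEN against untreated.

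Rb1, the gene deleted in RbKO and DKO, encodes the retinoblastoma protein. Without DEN it read 5.34, 5.30 and 5.76 in WT and 5.02, 5.02 and 4.76 in DKO, and these did not overlap. With DEN, WT livers read 6.02, 5.90, 5.82, 5.97 and 5.04, and p53KO livers read 5.56, 5.76, 5.93, 5.91 and 5.68. The signal was 5.55, 5.64, 5.79 and 6.28 in RbKO and 5.18, 5.57, 5.51, 5.82 and 5.35 in DKO, and all 3 knockout groups overlapped WT. The fit gave -0.50 (SE 0.22, adjusted p = 0.336) for untreated DKO and -0.29 (SE 0.19, adjusted p = 0.355) for DEN DKO. In DEN RbKO it gave 0.08 with a 95% confidence interval from -0.28 to 0.44, and DKO against RbKO gave -0.37 (-0.76 to 0.02, adjusted p = 0.389), so 0 lay inside both intervals. The call for DEN DKO was gained without DEN WT replicate 5 at -0.42 (adjusted p = 0.0447). Within set 1 the values were -0.49 (adjusted p = 0.0136) in DEN DKO and -0.25 (adjusted p = 0.275) in DEN RbKO, and DEN gave 0.59 (adjusted p = 0.00807) in WT and 0.49 (adjusted p = 0.00629) in DKO. Within set 2, which holds 1 DEN RbKO array, RbKO minus WT after DEN was 0.78. Which part of the transcript the probes read relative to the deleted part is not given in the sources used here, and cells without Cre keep the gene, so this signal does not check the RbKO label. The p53 gene is not analysed here.

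Ccne2 encodes cyclin E2, the regulatory subunit of CDK2 at the start of S phase, and it was the member that varied most, from 4.95 to 7.41 log2. Without DEN, Ccne2 read 5.89, 5.43 and 6.10 in WT and 5.46, 5.92 and 5.99 in DKO. With DEN, WT livers read 6.15, 6.27, 6.41, 4.95 and 5.14, and RbKO livers read 6.92, 7.13, 7.15 and 7.41. The signal was 7.02, 6.88, 7.05, 6.82 and 6.63 in p53KO, and 7.00, 6.74, 7.17, 7.12 and 6.57 in DKO. Every DEN array of a knockout genotype lay above every DEN WT array and above every untreated array. Ccne2 was higher than in WT by 1.32 (SE 0.22, adjusted p = 0.00136) in RbKO, by 1.05 (SE 0.24, adjusted p = 0.00524) in DKO and by 1.03 (SE 0.26, adjusted p = 0.0372) in p53KO, which are 2.49-fold, 2.06-fold and 2.04-fold. The call in p53KO was lost on leaving out any of DEN p53KO replicates 1, 2 and 3 or DEN WT replicate 5 (adjusted p from 0.0546 to 0.124).

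In order of raw group means, Ccne2 stood at 5.78 ± 0.68 (SD, n = 5) in DEN WT, 5.79 ± 0.29 (n = 3) in untreated DKO and 5.80 ± 0.34 (n = 3) in untreated WT. The other 3 groups followed at 6.88 ± 0.17 (n = 5) in DEN p53KO, 6.92 ± 0.26 (n = 5) in DEN DKO and 7.15 ± 0.20 (n = 4) in DEN RbKO. Neighbours in this order overlapped except at the step from untreated WT to DEN p53KO. Untreated DKO differed from untreated WT by -0.13 (SE 0.28, 95% confidence interval -0.70 to 0.44, adjusted p = 0.911). With DEN, Ccne2 rose in DKO by 1.18 (SE 0.25, adjusted p = 0.00142), or 2.27-fold, with no overlap between the groups. It was the 1 member of 10 called for DEN in DKO, where 4.49% of all genes were called higher and 21% in either direction.

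Ccne1 encodes cyclin E1, the other E-type cyclin, and its levels followed another order. It read 5.11, 5.24 and 5.41 in WT and 5.63, 5.63 and 5.41 in DKO before DEN, and 5.67, 5.98, 5.66, 5.68 and 5.53 in DEN WT. It was 5.64, 5.61, 5.89, 6.10 and 6.23 in DEN p53KO, 5.86, 6.16, 5.63 and 5.70 in DEN RbKO, and 5.61, 5.26, 5.97, 6.33 and 5.72 in DEN DKO. The 3 untreated WT arrays lay below all DEN WT arrays, and after DEN the 4 genotypes overlapped. DEN against untreated in WT gave 0.46 (SE 0.16), which was not called over all genes (adjusted p = 0.105). It was called within set 1 alone at 0.59 (adjusted p = 0.0411) and with array weights at 0.59 (adjusted p = 0.00665). After DEN the difference from WT was 0.12 (95% confidence interval -0.18 to 0.42) in RbKO, -0.13 (-0.45 to 0.19) in DKO and -0.10 (-0.44 to 0.25) in p53KO, with 0 inside each interval.

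Rbl1 encodes p107, a pocket protein whose gene is itself held back by E2F and pocket protein complexes. Without DEN, Rbl1 read 4.99, 5.20 and 5.27 in WT and 5.52, 5.65 and 5.91 in DKO. With DEN, WT livers read 5.44, 5.66, 5.82, 4.98 and 4.54, and RbKO livers read 6.31, 6.39, 6.33 and 6.50. The signal was 5.72, 5.64, 6.35, 6.11 and 6.29 in p53KO, and 6.36, 6.00, 6.36, 6.37 and 5.53 in DKO. The RbKO arrays lay above all WT arrays and were the tightest group, with an SD of 0.08, whereas p53KO and DKO overlapped WT. Rbl1 was higher than in WT by 1.05 (SE 0.20, adjusted p = 0.00253), or 2.07-fold, in RbKO and by 0.65 (SE 0.22, adjusted p = 0.0469) in DKO. It was at 0.52 (SE 0.23, adjusted p = 0.247) in p53KO. The DKO call was lost without DEN WT replicate 1, 4 or 5 or without DEN DKO replicate 1, 2, 3 or 4 (adjusted p from 0.0637 to 0.150), and without any filter on dim genes (adjusted p = 0.0537). In untreated livers the difference of DKO from WT was 0.43 (SE 0.25, adjusted p = 0.536), although the groups did not overlap.

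Rbl2 encodes p130, the pocket protein that prevails in resting cells. It read 5.90, 5.91 and 6.31 in WT and 6.07, 5.92 and 5.98 in DKO before DEN, and 5.45 to 6.15 over the 4 DEN groups. It was called in no comparison, and its residual spread lay at the 28.2th percentile of all genes. The differences from WT after DEN were 0.25 (SE 0.12, adjusted p = 0.208) in RbKO, 0.18 (SE 0.13, adjusted p = 0.448) in DKO and 0.04 (SE 0.14, adjusted p = 0.924) in p53KO. In this family the calls therefore fell on Rbl1.

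**Figure D2:**
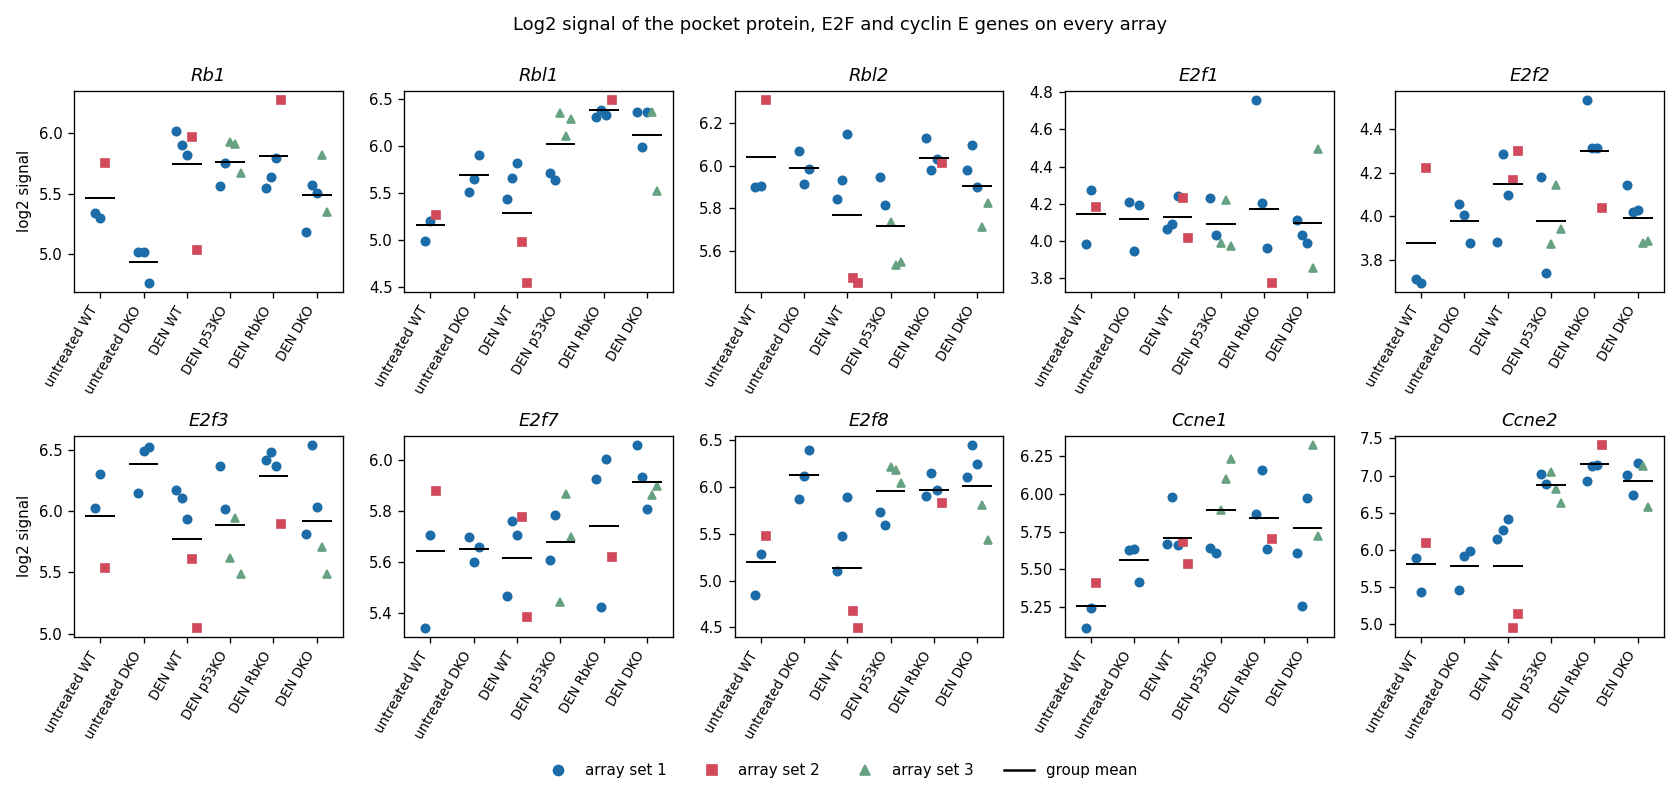
Log2 signal (vertical axis, separate range per panel) of each of the 10 genes on all 25 arrays, by group (horizontal axis), with the shape and colour giving the array set and a bar at the group mean. Ccne2 stands at 6.57 or above on every DEN array of a knockout genotype, and the 2 set 2 arrays of DEN WT lie lowest of all 25 for Ccne2, Rbl1 and E2f8.

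E2f8 encodes an atypical E2F that represses E2F targets. Without DEN, E2f8 read 4.85, 5.29 and 5.48 in WT and 5.87, 6.12 and 6.40 in DKO. With DEN, WT livers read 5.10, 5.48, 5.90, 4.67 and 4.49, and RbKO livers read 5.91, 6.15, 5.97 and 5.83. The signal was 5.74, 5.59, 6.22, 6.18 and 6.05 in p53KO, and 6.11, 6.45, 6.24, 5.81 and 5.43 in DKO. The untreated DKO arrays lay above all untreated WT arrays, and after DEN each knockout genotype overlapped WT. E2f8 was higher than in WT by 0.78 (SE 0.22, adjusted p = 0.0216) in RbKO and by 0.77 (SE 0.23, adjusted p = 0.0316) in DKO, or 1.72-fold and 1.70-fold. It was at 0.73 (SE 0.25, adjusted p = 0.126) in p53KO, and was called there without DEN WT replicate 3 (0.95, adjusted p = 0.0386).

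Each of these E2f8 calls rested on several arrays. That in RbKO was lost without DEN RbKO replicate 2 or 4 or DEN WT replicate 4 or 5 (adjusted p from 0.0504 to 0.146). That in DKO was lost without DEN WT replicate 1 or 5 or DEN DKO replicate 1, 2 or 3 (adjusted p from 0.0508 to 0.119). Before DEN, DKO exceeded WT by 0.81 (SE 0.27, adjusted p = 0.167), and by 1.06 without untreated WT replicate 3 (adjusted p = 0.0330). In untreated DKO against WT, 0 of 10 members were called by limma, with an unadjusted p under 0.05 for 2 (Rb1 and E2f8), where 1.11% of all genes were called. DEN moved E2f8 by -0.09 (95% confidence interval -0.60 to 0.42) in DKO, where Ccne2 rose by 1.18.

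Markers of neutrophils and their precursors were also higher in untreated DKO than in untreated WT. Of 9 tested, 3 were called higher, the median difference was 1.30, and the mean level of the list was 5.59 to 6.19 in untreated DKO and 4.41 to 4.53 in untreated WT. Lymphocyte markers had 1 of 6 called higher, but only 3 of 6 were above 0 and their median was -0.06. In this comparison 1.11% of all genes were called. The part of these cells in the E2f8 and Rbl1 values was not tested.

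E2f7 encodes the other atypical E2F. It read 5.34, 5.71 and 5.88 in WT and 5.70, 5.60 and 5.66 in DKO before DEN, and 5.47, 5.76, 5.71, 5.78 and 5.38 in DEN WT. It was 5.61, 5.79, 5.44, 5.87 and 5.70 in DEN p53KO, 5.93, 5.43, 6.00 and 5.62 in DEN RbKO, and 6.06, 5.93, 5.81, 5.86 and 5.90 in DEN DKO. The DEN DKO arrays lay above all DEN WT arrays, by 0.32 in the fit (SE 0.14), which was not called (adjusted p = 0.158). No other comparison called it either, and it was the member with the narrowest range, 0.72 log2 over the 25 arrays.

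The activators E2f1, E2f2 and E2f3 were called in 0 of 11 comparisons by limma. E2f1 and E2f2 were dim, at the 39.7th and 38.1th percentile of the genes, with signals of 3.77 to 4.76 and 3.70 to 4.54, so that small changes would be hard to see. E2f1 differed from WT after DEN by 0.02 (95% confidence interval -0.28 to 0.33) in RbKO, -0.11 (-0.47 to 0.24) in p53KO and -0.10 (-0.43 to 0.23) in DKO. E2f2 differed by 0.17 (-0.10 to 0.43), -0.08 (-0.39 to 0.22) and -0.09 (-0.37 to 0.20). The 3 knockout genotypes overlapped WT for both genes.

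E2f3 had 6.42, 6.49, 6.37 and 5.90 in DEN RbKO and 6.18, 6.11, 5.94, 5.61 and 5.05 in DEN WT, which overlapped through the 1 set 2 array of RbKO. The difference was 0.42 (SE 0.14, adjusted p = 0.0594), which was called with each array centred on its median (0.48, adjusted p = 0.0328) and with a stricter filter on dim genes (adjusted p = 0.0487). It was at 0.16 (SE 0.17, adjusted p = 0.683) in p53KO and 0.09 (SE 0.16, adjusted p = 0.784) in DKO. Its signal ran lower in sets 2 and 3 than in set 1, with set terms of -0.65 and -0.52. A second, dimmer probe set of E2f3 (mean 4.72 against 6.01) gave 4.87, 4.78, 4.80 and 5.04 in DEN RbKO and 4.29, 4.86, 4.45, 4.89 and 5.43 in DEN WT, so those groups overlapped there too. Unlike the first probe set, it read higher in set 2 than in set 1. The set 2 arrays gave 5.04 in DEN RbKO, 4.89 and 5.43 in DEN WT, and 5.13 in untreated WT against 4.41 and 4.43 in set 1.

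For Rbl1, E2f8 and E2f7 the 250 bases before a RefSeq start (GRCm38.p6) are shown, because the first 2 were called together and E2f7 is the paralogue of E2f8 that was not. Capitals mark letters that match a 7-letter end of the E2F words TTTCCCGC, TTTCGCGC, TTTGCCGC or TTTGGCGC on either strand. The 7-letter ends are the first 7 or the last 7 letters of a word, and neighbouring matches can overlap each other. The windows are chr2:157204535-157204784 on the minus strand for Rbl1, chr7:48881597-48881846 on the minus strand for E2f8 and chr10:110745189-110745438 on the plus strand for E2f7.
Rbl1: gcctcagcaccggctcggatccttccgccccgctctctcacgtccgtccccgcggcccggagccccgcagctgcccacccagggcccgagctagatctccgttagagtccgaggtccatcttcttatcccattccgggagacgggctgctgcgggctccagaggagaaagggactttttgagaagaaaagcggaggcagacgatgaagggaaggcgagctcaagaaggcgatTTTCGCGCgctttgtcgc
E2f8: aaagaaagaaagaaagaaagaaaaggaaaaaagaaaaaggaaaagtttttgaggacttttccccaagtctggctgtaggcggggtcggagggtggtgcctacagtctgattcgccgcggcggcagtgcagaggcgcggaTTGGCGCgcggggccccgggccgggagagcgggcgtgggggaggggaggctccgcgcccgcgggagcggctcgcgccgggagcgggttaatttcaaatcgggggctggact
E2f7: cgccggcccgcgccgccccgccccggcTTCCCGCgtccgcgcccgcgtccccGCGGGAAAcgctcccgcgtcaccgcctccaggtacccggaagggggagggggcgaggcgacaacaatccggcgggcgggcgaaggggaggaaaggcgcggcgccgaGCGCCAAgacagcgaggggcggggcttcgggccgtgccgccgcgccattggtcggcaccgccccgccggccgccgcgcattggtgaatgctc
Rbl1 holds a whole 8-letter word, TTTCGCGC, that begins 18 bases before the start. E2f8 holds only the shorter TTGGCGC, 111 bases before it. The E2f8 start used here is an inner one, as the annotated gene reaches to 48882073. Its printed window therefore lies within the gene, whereas those of Rbl1 and E2f7 lie just outside theirs, so the windows are not alike. E2f7 holds GCGGGAAA, the reverse complement of TTTCCCGC, from 198 bases before the start, with shorter matches from 223 and 92 bases before it. In windows of 300 bases, which add 50 bases after the start, 2.27% of 32851 RefSeq promoters held an 8-letter word and 13.4% held a 7-letter word. Of the 10 members, 8 had entries. A window of Rbl1, E2f2, E2f3 and E2f7 held an 8-letter word, and in E2f2 it lay 40 bases after the start. E2f8 held only a 7-letter one, and the windows of Rbl2, E2f1 and Ccne1 held none. The E2f1 window also lies within its gene, which reaches to 154569892, so the bases before that gene end were not read. A match is a description of letters, and the genes with an 8-letter word included called and uncalled ones.

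Livers lacking both genes were compared with those lacking 1 of them to ask whether the deletions add up. DKO against p53KO, DKO against RbKO and p53KO against RbKO gave 0 of 10 member calls each by limma, with unadjusted p under 0.05 for 0, 1 (E2f3) and 1 (Rbl1), where 1.87%, 1.03% and 0.577% of all genes were called. For Ccne2, DKO minus p53KO was 0.02 (95% confidence interval -0.42 to 0.45) and DKO minus RbKO was -0.27 (-0.77 to 0.22). For Rbl1 they were 0.13 (-0.26 to 0.52) and -0.39 (-0.84 to 0.05), and for E2f8 they were 0.04 (-0.39 to 0.47) and -0.02 (-0.50 to 0.47). The difference p53KO minus RbKO was -0.29 (-0.82 to 0.24) for Ccne2, -0.52 (-1.01 to -0.04, adjusted p = 0.398) for Rbl1 and -0.05 (-0.58 to 0.47) for E2f8. For Rbl1 the interval of DKO minus RbKO reaches -0.84, so these values do not show that the genotypes were alike.

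If the effects of both deletions added on the log2 scale, DKO minus p53KO minus RbKO plus WT would be 0. It was -1.30 for Ccne2 (SE 0.31, 95% confidence interval -1.93 to -0.67, adjusted p = 0.0533), -0.92 for Rbl1 (SE 0.28, -1.49 to -0.35, adjusted p = 0.0938) and -0.74 for E2f8 (SE 0.30, -1.36 to -0.13, adjusted p = 0.187). By limma 0 of 10 members were called, 4 of 10 had an unadjusted p under 0.05 (with E2f3 at -0.49), and 0.426% of all genes were called. Within set 1, which holds all 4 genotypes, Ccne2 was at -0.77 (adjusted p = 0.0982), but Rbl1 was at -0.14 and E2f8 at 0.09. The low value for Ccne2 was thus present within the set, and those of Rbl1 and E2f8 were not.

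The response to DEN was compared between DKO and WT as the difference of their differences. It was 1.18 for Ccne2 (SE 0.35, adjusted p = 0.0306), the 1 member of 10 called, where 1.36% of all genes were called above 0 and 9.91% in either direction. Ccne2 rose by 1.18 in DKO and moved by 0.00 (SE 0.24) in WT. In WT, DEN gave 0 of 10 member calls by limma, with an unadjusted p under 0.05 for 1 (Ccne1), where 3.99% of all genes were called. The Ccne2 call was lost without untreated WT replicate 1 or 3, untreated DKO replicate 1, DEN WT replicate 4 or 5, or DEN DKO replicate 3 (adjusted p from 0.0506 to 0.201). It was 0.57 within set 1 (adjusted p = 0.153) and 0.57 without set 2 (adjusted p = 0.205).

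The WT arrays behaved differently in the 2 sets that hold them. In set 1 Ccne2 averaged 5.66 untreated and 6.28 with DEN, and in set 2 it averaged 6.10 and 5.05. DEN minus untreated WT was thus 0.62 in set 1 and -1.05 in set 2 for Ccne2. For Rbl1 it was 0.54 and -0.51, and for E2f8 0.43 and -0.89. Ccne1 was above 0 in both sets, at 0.59 and 0.20. Set 2 rests on 1 untreated and 2 DEN arrays, so no test was made within it. Within set 1, Rb1, Rbl1, Ccne1 and Ccne2 were called for DEN in WT, 4 of 10 where 11% of all genes were called, and Rb1, Rbl1 and Ccne2 for DEN in DKO, 3 of 10 where 25.3% were.

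For Ccne2, Rbl1 and E2f8, RbKO minus WT after DEN kept its sign in both sets but not its size. For Ccne2 it was 0.79 in set 1 and 2.37 in set 2, for Rbl1 0.70 and 1.74, and for E2f8 0.52 and 1.25. It changed sign for Rb1 (-0.25 and 0.78), E2f1 (0.17 and -0.35) and E2f2 (0.30 and -0.19). Set 2 holds 1 DEN RbKO array. Within set 1, Ccne2 (adjusted p = 0.0122) and Rbl1 (adjusted p = 0.0103) were called and E2f8 (adjusted p = 0.119) was not, 2 of 10 where 3.34% of all genes were called. DKO minus WT in set 1 was called for Ccne2 (0.70), Rbl1 (0.60), E2f8 (0.77) and Rb1 (-0.49), 4 of 10 where 10.9% were called. For p53KO minus WT it was called for Ccne2 (0.67), 1 of 10 where 5.91% were called, and Rbl1 and E2f8 were at 0.04 and 0.17 there. Set 3 holds no WT array and set 2 holds no p53KO or DKO array, so the fit ties these sets together through set 1. The set 2 WT arrays still enter the fitted p53KO and DKO differences from WT. For Ccne2 these were 1.03 and 1.05 with all sets, and 0.68 and 0.70 without set 2.

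Before DEN, set 1 alone called E2f8 (1.06, adjusted p = 0.00336) and Rbl1 (0.59, adjusted p = 0.0216) higher in DKO than in WT, 2 of 10 where 5.59% of all genes were called. This compares 3 DKO with 2 WT arrays. DKO minus p53KO for Rbl1 was 0.57 in set 1 (adjusted p = 0.0354, 1 of 10 where 4.87% were called) and -0.30 in set 3. For E2f8 it was 0.60 in set 1 (adjusted p = 0.0924) and -0.52 in set 3, whereas for Ccne2 it was 0.02 in both. Rbl1 was also lower in p53KO than in RbKO within set 1, at -0.67 (adjusted p = 0.0202, 1 of 10 where 3.34% were called). DKO minus p53KO, the only difference between knockout genotypes that 2 sets hold, thus had opposite signs in sets 1 and 3 for Rbl1 and E2f8, which was not tested.

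**Figure D3:**
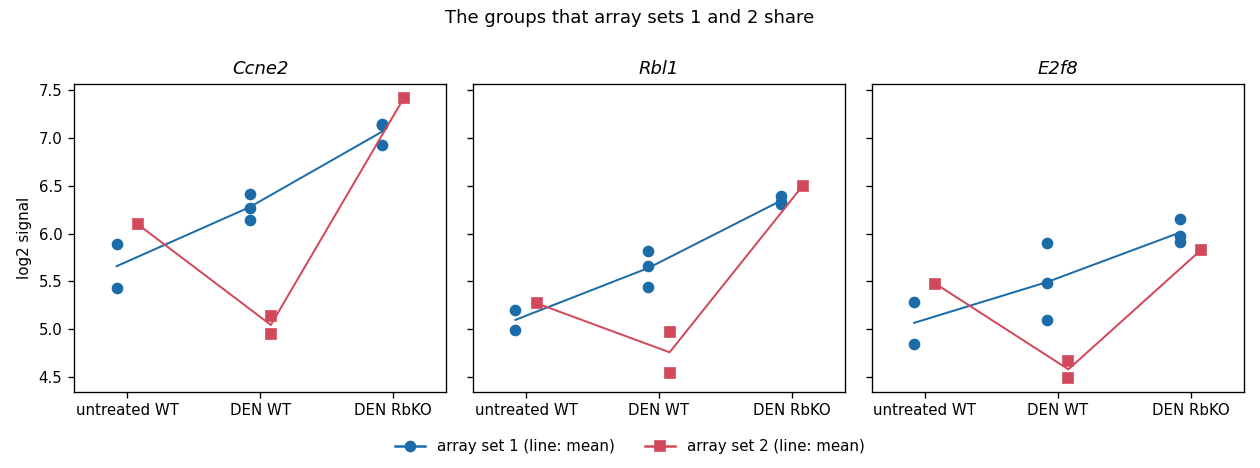
Log2 signal of Ccne2, Rbl1 and E2f8 (panels) in the 3 groups that sets 1 and 2 share, with a point per array and a line through the means of each set. In set 2 the 2 DEN WT arrays lie below the untreated array, and in set 1 the DEN WT mean lies above the untreated mean, while the DEN RbKO arrays are highest in both sets.

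Partners of these genes in the cell cycle machinery were read from a list of 30, of which 29 were measured. In RbKO after DEN 5 rose, 1 fell and 23 were not called, where 11.4% of all genes were called, and the median was 0.16 against -0.04 over all genes. Ccna2, the cyclin A gene of S phase, rose by 1.17 (SE 0.26, adjusted p = 0.00630), and Fbxw7, which encodes the ubiquitin ligase subunit that marks cyclin E for destruction, rose by 0.71 (SE 0.15, adjusted p = 0.00427). Tfdp2, which encodes a DP partner of E2F, rose by 0.65, and Cdkn2c, which encodes an inhibitor of CDK4 and CDK6, rose by 0.70. Tfdp1 at 0.47 was the fifth rise and E2f4, a repressor E2F, at -0.35 the only fall, both named after their values were seen. In DKO, 2 rose and 3 fell of 29, where 11.8% of all genes were called, with Ccna2 at 1.05 (SE 0.28), Ccnd1, the cyclin D1 gene, at -1.24 (SE 0.20), Ccnd2 at -0.51 and Hdac1 at -0.41, and with Lin9 at 0.42 as the other rise, named after its value was seen. In p53KO, Ccnd1 fell by 0.99 and Cdkn1c, a CDK inhibitor gene, rose by 0.64, where 1.78% of all genes were called. For DEN in DKO 1 rose and 5 fell of 29, near the 21% of all genes called there. By p the first falls were Cdk6 at -0.89, Cdk4 at -1.13, Ccnd1 at -1.22 and Hdac1 at -0.72. The rise was Cdkn1b, the gene of the CDK inhibitor p27, at 1.06 and the fifth fall was E2f4 at -0.50, both named after their values were seen.

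Of 30 listed E2F targets of DNA replication and chromatin, 28 were measured. In RbKO after DEN 10 rose, none fell and 18 were not called, where 11.4% of all genes were called, with 26 of 28 above 0 and a median of 0.34 against -0.04 over all genes. Mcm4, a helicase subunit gene, rose by 0.88 (SE 0.13) and Ezh2, a histone methyltransferase gene, by 0.84 (SE 0.14). Pola1 and Prim1, which encode parts of the complex of DNA polymerase alpha and primase, rose by 0.98 (SE 0.15) and 1.21 (SE 0.21). The medians within sets 1 and 2 were 0.29 and 0.41. In DKO 7 rose, none fell and 21 were not called, where 11.8% of all genes were called, at a median of 0.20 (0.17 within set 1). The 4 with the lowest p there were Pola1 (1.02), Prim1 (0.90), Mcm4 (0.54) and Ezh2 (0.54). In p53KO only Prim1 was called (0.99, adjusted p = 0.0355), where 1.78% of all genes were, at a median of 0.18. Within set 1 that median was 0.03, with 15 of 28 above 0. In untreated DKO, Mcm6 (0.96) and Prim1 (1.05) were called higher, 27 of 28 were above 0 and the median was 0.36 (0.37 within set 1), where 1.11% of all genes were called. For DEN in DKO 5 targets rose and 4 fell, where 21% of all genes were called, at a median of 0.07, with Rrm2, a subunit gene of ribonucleotide reductase, at 0.96, Slbp at 0.77, Gins2 at -0.83 and Chaf1b at -0.73. The mean level of the list was 5.61 to 5.84 in untreated WT, 6.15 to 6.39 in untreated DKO, 5.48 to 6.25 in DEN WT and 6.10 to 6.59 over the 3 DEN knockout groups. The 2 set 2 arrays of DEN WT, at 5.71 and 5.48, were the lowest of that group, as they were for Ccne2, Rbl1 and E2f8.

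**Figure D4:**
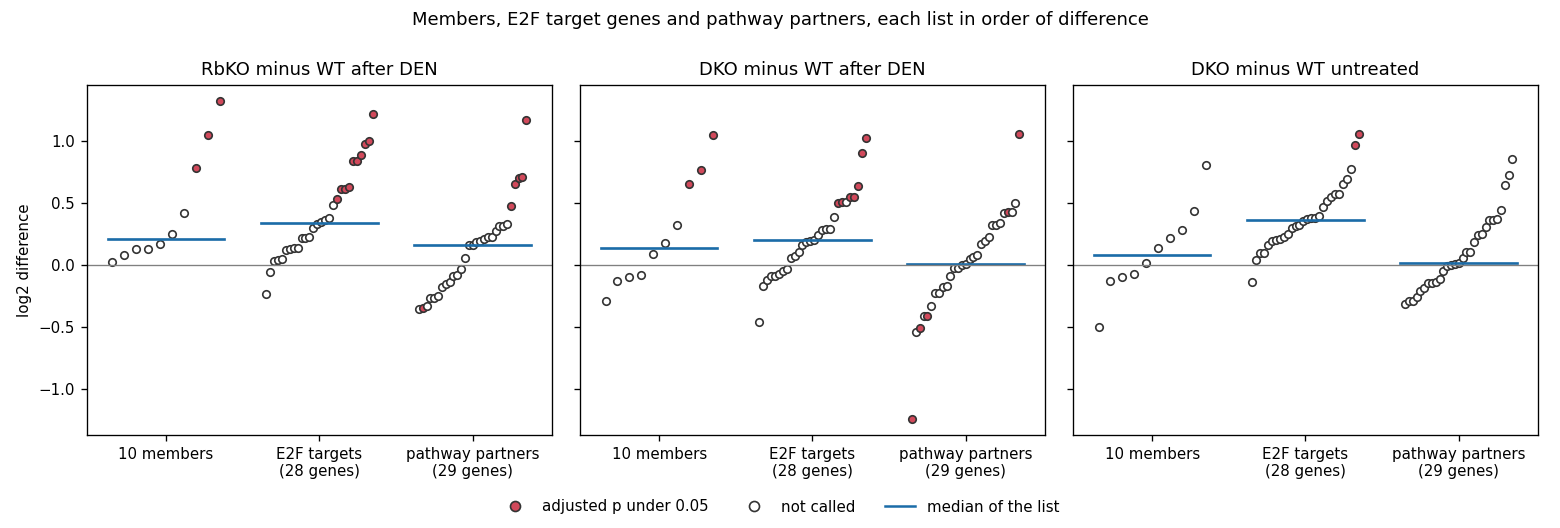
Log2 difference (vertical axis) of the 10 members, 28 E2F targets and 29 pathway partners in 3 comparisons, each list in order of difference, filled where the adjusted p was under 0.05, with a line at the median of the list. The medians in RbKO after DEN are 0.21, 0.34 and 0.16.

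Levels of markers of other cells were set beside these differences. Fewer cells of a type and less RNA per cell cannot be told apart in whole liver. In RbKO against WT after DEN, erythroid (7 tested), lymphocyte (6), neutrophil (9) and cholangiocyte markers (5) had 0 calls by limma, with unadjusted p under 0.05 for 0, 1, 0 and 0. Macrophage markers had 1 higher and 1 lower of 10, and stellate cell markers 1 higher and 1 lower of 8. Endothelial markers had 1 lower of 8 and hepatocyte markers 1 lower of 8. In that comparison 11.4% of all genes were called. In DKO against WT after DEN, endothelial markers fell for 6 of 8, at a median of -0.71, where 11.8% of all genes were called. Their mean level was 5.81 to 6.13 in DEN DKO and 6.41 to 6.81 in DEN WT. In p53KO the endothelial markers were at a median of -0.50, with 0 of 8 called by limma but 8 of 8 at an unadjusted p under 0.05. There 1.78% of all genes were called. For DEN in DKO, where Ccne2 rose, 21% of all genes were called in either direction. Neutrophil markers fell there for 5 of 9 (median -1.23), endothelial markers for 7 of 8 (-0.92), and stellate cell markers for 5 of 8 (-0.47). Hepatocyte markers had 1 higher and 3 lower of 8 (median -0.26). Lymphocyte markers fell for 3 of 6 (-0.20), macrophage markers for 3 of 10 (-0.08), erythroid markers for 2 of 7 (-0.14) and cholangiocyte markers for 0 of 5 (-0.12). For the difference of responses, 4 of 9 neutrophil markers (median -1.82) and 4 of 8 endothelial markers (-0.80) were called below 0. Of all genes, 9.91% were called there in either direction. The erythroid list, whose cells use E2f2 and E2f8 as they mature, had a mean level of 4.08 to 4.23 in DEN WT, 3.97 to 4.10 in DEN RbKO and 3.87 to 4.29 in DEN DKO, and Epb42, Rhag and Kel were too dim to be tested. The part of these cells in the differences of the 10 genes was not tested.

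Among themselves, Ccne2, Rbl1 and E2f8 moved together. After the set term was taken out, Pearson's r over the 25 arrays was 0.84 for Rbl1 and Ccne2, 0.81 for Rbl1 and E2f8, and 0.62 for E2f8 and Ccne2 (Spearman's rho 0.85, 0.77 and 0.57). With the group means taken out as well, r was 0.70, 0.82 and 0.56, so arrays of the same group that were high for 1 of these genes tended to be high for the others. With only the set term taken out, the pairs of E2f1 with these 3 genes were at -0.24, -0.20 and -0.26 for Rbl1, E2f8 and Ccne2. Ccne1 and Ccne2 were at 0.36 in the same way. These values describe 25 arrays that share groups and array sets, and carry no test.

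By the same measure, the genes with a pattern most like that of Ccne2 were Depdc1a (0.95) and G2e3 (0.95), those most like Rbl1 were Pign (0.94) and Kif20b (0.93), and those most like E2f8 were Kif23 (0.91) and Hmgb2 (0.90). For Rb1 they were Ythdc2 (0.82) and Snx5 (0.80), for Rbl2 Gsdme (0.81) and Ccdc47 (0.78), and for E2f7 Kcns3 (0.79) and A130051J06Rik (0.76). For E2f1 they were Col5a2 (0.76) and Spesp1 (0.75), for E2f2 Irs1 (0.76) and Hnrnpm (0.76), for E2f3 Msh3 (0.73) and D6Wsu163e (0.73), and for Ccne1 Msh6 (0.75) and Irs1 (0.75). The nearest genes of Ccne2, Rbl1 and E2f8 were thus closer to them than those of the other 7 members.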

How the data were processed

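Total RNA of frozen liver was amplified, labelled with biotin and put on Affymetrix mouse arrays, as the labels' protocols state. The deposited values are log2 signals that the authors made with RMA in Affymetrix Expression Console 1.1, per the submitters' processing notes. RMA corrects background, makes the distributions of arrays alike and summarises each probe set, so a change shared by most genes would be reduced. A single normalization of the 25 arrays is not stated in the sources used here.

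Of 35555 probe sets, 21789 had 1 gene symbol in the platform annotation. Symbols were updated through RefSeq gene IDs, the brightest probe set of a gene was kept (19938 genes), and 3987 genes with a mean under the 20th percentile (3.33 log2) were left out, which left 15951. limma 3.58.1 in R 4.3.3 (lmFit, eBayes) fitted group means and a set term on the 25 arrays, two-sided, with Benjamini-Hochberg adjustment over all genes tested in a comparison. Promoters came from RefSeq (GRCm38.p6). The calculation was tested on simulated data.

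Named genes are the 10 members, up to 4 called genes of each pathway list in order of p, and the 2 genes most correlated with each member. The members and lists were chosen with earlier results of these data known. The lists are pathway partners, E2F targets and markers of hepatocytes, erythroid cells, lymphocytes, macrophages, neutrophils and myeloid precursors, endothelium, stellate cells and matrix, and cholangiocytes. Other settings left out the set term, made it a random block (statmod 1.5.0), or used set 1 alone or no set 2. Others used no filter, a 40th percentile filter, mean probe sets, centred arrays, array weights, and each array left out.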

Additional observations from a re-analysis of the deposited data

Results flagged for a closer look

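Rb1 in DEN WT replicate 5 had a log2 signal of 5.04, with the nearest of the other 4 arrays of its group at 5.82, a gap that was 0.798 of the range of the group. Of 40 sets of 4 or 5 arrays examined in this way (10 genes in the 4 DEN groups), this was the only one set apart, and chance sets apart about 1 in 20.

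The DEN response of Ccne2 differed between DKO and WT by 1.18 (adjusted p = 0.0306 by limma), with 1.18 in DKO and 0.00 in WT. The WT values went in opposite directions in sets 1 and 2.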

How the results depend on the processing

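Among member differences under the other settings, 858 kept their direction and their side of the threshold, 11 lost a call, 31 gained one, 68 crossed 0 without a call before or after, and no called difference changed sign. Left out 1 array at a time, 26 lost a call and 10 gained one.

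With set 1 alone, the members called were 4 for DEN in WT, 3 for DEN in DKO, 0 for the difference of these responses, 2 for untreated DKO against WT, 1 for DKO against p53KO and 1 for p53KO against RbKO. In the same order, 11%, 25.3%, 7.35%, 5.59%, 4.87% and 3.34% of all genes were called. Without set 2 the members called were 1, 2, 0 and 1 in the first 4 of these comparisons, 0 for p53KO against WT and 1 for RbKO against WT. The shares of all genes were then 6.81%, 25.3%, 5.52%, 3.23%, 1.22% and 1.21%. Without a set term the members called were 0 for the difference of responses, 3 for p53KO against WT and 2 for RbKO against WT. The shares of all genes were 4.16%, 7.87% and 2.44%, and E2f8 was lost in RbKO (adjusted p = 0.0538). Array weights gave 3 for DEN in WT, 2 for DEN in DKO and 3 for untreated DKO against WT, where 12.2%, 29.9% and 9.87% of all genes were called. Centred arrays gave 2 for DEN in DKO, where 22.9% were called. The departure from additivity had 1 call (Ccne2) with the set as a random block, the 40th percentile filter, mean probe sets or centred arrays (adjusted p from 0.0451 to 0.0495). In that order, 0.451%, 1.03%, 0.545% and 0.683% of all genes were called.

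With each array left out in turn, the count ranged from 0 to 1 for DEN in WT, for the difference of responses, for untreated DKO against WT and for additivity, from 0 to 2 for p53KO against WT, from 2 to 3 for RbKO against WT and from 1 to 3 for DKO against WT. It stayed at 1 for DEN in DKO and at 0 for the 3 comparisons between knockout genotypes. Ccne2 kept its call in RbKO and DKO against WT under all the other settings and every array left out, with log2 differences from 0.70 to 1.46. With centred arrays the median over all genes went from -0.03 to 0.10 for the difference of responses and from 0.00 to 0.10 for DEN in DKO. The cause of these changes was not tested. No paired analysis was possible because the numbers in the array names run over the arrays of a set and do not recur between groups within it. E2f1 and E2f2 were dim, which limits what could be seen for them.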
